A study of Mus musculus with 16 samples.

Results

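The genes described here encode the cytosolic factors that start translation and bring aminoacyl-tRNA to the elongating ribosome. They were taken by symbol, as every gene whose name begins with Eif1 to Eif6 or with Eef1, apart from the Eif2ak kinases. The rule found 61 genes among the 20145 genes that the array names, and 58 of them could be tested. All 58 were well above background on every array with a measured spot, so none of them entered through 1 bright group. The other 3 members were Eef1a2, the elongation factor paralogue of neurons and muscle, Eif4e1b, an oocyte paralogue of the cap-binding protein, and the Y-linked Eif2s3y. Eef1a2 and Eif4e1b were well above background on 0 of 16 arrays, and Eif2s3y on 9.

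Initiation begins when eIF2 carries initiator tRNA to the small ribosomal subunit, where eIF1, eIF1A and eIF3 are bound. The cap-binding complex eIF4F, made of Eif4e, an Eif4g scaffold and an Eif4a helicase, brings in the mRNA, and the 4E-binding proteins hold Eif4e away from it when mTOR is inactive. After each start eIF2 must be recharged with GTP by eIF2B, and kinases of the integrated stress response act by turning phosphorylated eIF2 into an inhibitor of eIF2B. In elongation eEF1A delivers aminoacyl-tRNA and the eEF1B complex recharges it. Podocytes wrap the capillaries of the glomerulus with foot processes and form part of the kidney's filtration barrier.

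RNA bound to ribosomes was measured in 4 groups of 4 mouse arrays, all on the C57BL/6N background. Podocyte RNA came from polysomes pulled down with an HA antibody from mice in which Nphs1-Cre switches on the tagged ribosomal protein of the RiboTag allele. Uninjured podocytes, called normal here, came from Nphs1-RiboTag mice, and glomerular RNA came from the same kind of mouse as polysomes that were not precipitated, so it also holds podocyte RNA. Injured podocytes came from Nphs1-RiboTag-NEP25 mice, whose podocytes carry human CD25, taken 4 or 7 days after 1 tail vein injection of the CD25-directed immunotoxin LMB2 at 0.625 ng per g of body weight. LMB2 stops protein synthesis by inactivating eEF2, which is not among these genes, and the series text gives NEP25 to the injected mice alone. Nothing in the labels ties an array to a separate animal, so p-values measure the spread between these samples, which may be technical.

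Each array had 59305 spots other than controls, of which 49.3% to 57.5% were well above background. The arrays of normal podocytes and glomerular RNA share 1 slide and scan, and those of day 4 and day 7 share another. Effects of LMB2, of the NEP25 allele and of the slide therefore cannot be told apart in either comparison with normal podocytes. Day 7 against day 4, and podocyte against glomerular RNA, are comparisons within a slide. The summed signal of 8 podocyte markers, in multiples of the array's 75th percentile, was 2110 to 2250 in normal podocytes, 1720 to 2140 at day 4 and 1270 to 1520 at day 7, against 683 to 891 in glomerular RNA. That of 8 endothelial markers was 30.4 to 69.0 in normal podocytes, 20.3 to 35.7 at day 4 and 23.5 to 35.9 at day 7, against 474 to 595 in glomerular RNA. Proximal tubule markers stood high in day 4 replicate 1 (91.1), day 7 replicate 4 (109) and normal replicate 4 (53.9), where the other podocyte arrays had at most 19.7. The 5 parietal epithelial markers summed to 2.44 to 3.17 in normal podocytes, 2.30 to 3.27 at day 4 and 3.79 to 8.27 at day 7, and the 8 mesangial and smooth muscle markers to 12.3 to 19.2, 9.98 to 13.7 and 16.3 to 23.5 at those times. Their part in the day 7 differences was not tested.

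Normal podocyte ribosomes carried more mRNA of most translation factors than the glomerular polysomes did. A gene was called at a Benjamini-Hochberg adjusted p under 0.05 from limma over all 14614 genes tested. By that rule 47 of the 58 members were higher in podocyte RNA and 5 were lower, which is 81.0% and 8.62% of them. Of all genes tested, 51.6% were called higher and 27.5% lower. The members' median log2 difference was 0.71, beside 0.38 for all genes. With the median of each array set to 0 the median of all genes was 0.75 and the members' split 52 higher to 1 lower, and with quantile normalization it was 37 to 9.

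The eIF1, eIF1A and eIF2 genes tested were all higher, though not all were called under every scaling. All 5 eIF1 and eIF1A genes and all 10 tested genes of the eIF2 group were called higher, with median differences of 0.82 and 0.93. For all genes tested, 51.6% were called higher and the median was 0.38. With quantile normalization 3 of the 5 and 9 of the 10 were called, and those no longer called were Eif1, Eif1b and Eif2s3x. Eif2s1, the alpha subunit of eIF2 that the stress kinases phosphorylate, had normalised log2 signals (log2 signal minus the array's 75th percentile) of 3.33, 3.27, 3.17 and 3.17 in podocyte RNA, against 2.26, 2.16, 2.18 and 2.28 in glomerular RNA. The groups did not overlap, and the difference was 1.02 ± 0.08 (SE, n = 4 arrays each; limma adjusted p 6.4e-08). All 5 subunits of eIF2B were higher, and 3 of them were among the 6 members with the largest positive differences. Eif2b3 differed by 1.47, Eif2b2 by 1.33 and Eif2b5, the catalytic subunit, by 1.28. The eIF2B genes were also called higher under each of 4 other scalings.

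The eIF3 scaffold was higher in 11 of its 13 genes (84.6%), where 51.6% of all genes were called higher. Eif3m had the largest difference of all members. Its values were 7.47, 7.24, 7.48 and 7.31 in podocyte RNA, against 5.33, 5.17, 5.55 and 5.16 in glomerular RNA. The difference was 2.08 ± 0.12 (limma adjusted p 2.5e-09), or 4.22-fold, and a second probe of Eif3m gave 2.24. Eif3a, the large subunit on which the complex assembles, differed by 0.59. Eif3e was not called (0.16), and Eif3f was called lower (-0.33).

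Among the eIF4 factors and 4E-binding proteins, 11 of 16 genes were higher and 2 lower (68.8% and 12.5%). Of all genes tested, 51.6% were called higher and 27.5% lower. The median of the 16 was 0.50, beside 0.38 for all genes. Eif4a3, the helicase of the exon junction complex, differed by 1.34, Eif4a1, the main eIF4F helicase, by 1.07, its paralogue Eif4a2 by 0.82, Eif4e by 0.96 and Eif4g1 by 0.63. Eif4e3, a cap-binding paralogue, went the other way. It had -1.34, -1.39, -1.64 and -1.83 in podocyte RNA, against -0.13, -0.16, -0.15 and -0.29 in glomerular RNA. Every podocyte array lay below every glomerular array, and the difference was -1.36 ± 0.15 (limma adjusted p 1.3e-06). The 4E-binding proteins did not share a direction. Eif4ebp3 was higher (0.36), Eif4ebp2 was lower (-0.46), and Eif4ebp1 was not called (0.29, adjusted p 0.16). With quantile normalization 6 of these 16 genes were higher and 4 lower, and their median was 0.12, beside 0.28 for all genes. The eIF3 genes then had 9 higher and 2 lower. Eif3a, Eif4g1 and Eif4ebp3 were among those no longer called higher.

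The remaining factors followed the majority with a few exceptions. Eif6, which keeps large subunits from joining small ones too early, differed by 0.95, Eif5a, which helps ribosomes through stalling stretches, by 0.81 and its paralogue Eif5a2 by 0.55. Eif5b, the subunit-joining GTPase, was not called (0.32). Eef1e1, a component of the multi-synthetase complex, had 1.84, 1.71, 1.54 and 1.38 in podocyte RNA, against -0.17, -0.35, -0.11 and -0.30 in glomerular RNA. That is a difference of 1.85 ± 0.13, the second largest of the family. All 4 tested methyltransferases of eEF1A were higher, by 0.73 to 1.06.

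The 8 members on the list of known TOP mRNAs used here stood below the rest of the family in their median difference. That list was chosen with earlier results of these data known, and no other list was tried. TOP mRNAs begin with a terminal run of pyrimidines and are translated under the control of mTOR and LARP1, and they include the ribosomal proteins. Of the 8 TOP members, 3 were higher and 3 lower (median difference 0.04), while 44 of the 50 other tested members were higher and 2 lower (median 0.80). Eef1a1 had 7.35, 7.05, 7.21 and 7.03 in podocyte RNA, against 7.42, 7.10, 7.30 and 7.12 in glomerular RNA. These values overlapped and the difference was -0.08 (adjusted p 0.54). Eef1b2 (-0.32), Eef1g (-0.32) and Eif3f (-0.33) were called lower, but took the sign of the majority, at 0.04, 0.04 and 0.03, when the median of each array was set to 0. Eef1d was higher (0.66), as were Eif3h (0.26) and Eif4b (0.23), both of which turned negative with quantile normalization. Under the 4 other scalings the median of the TOP members ran from -0.30 to 0.40, below that of the other members each time.

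The cytosolic ribosomal proteins, most of them TOP mRNAs, had 7 genes higher and 52 lower of 84 (median difference -0.45), or 16 and 19 with array medians set to 0. Cytosolic aminoacyl-tRNA synthetases, which charge the tRNA that eEF1A carries, had 21 of 22 higher and 0 lower (median 1.05). Of 38 other translation factors and regulators, 30 were higher and 3 lower. All genes tested had 51.6% called higher and 27.5% lower. The shares were 8.33% and 61.9% for the ribosomal proteins, 95.5% and 0% for the synthetases, and 78.9% and 7.89% for the 38. The pulled-down RNA and the whole polysome RNA were prepared differently, and the part of the pull-down in these differences was not tested.

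**Figure D1:**
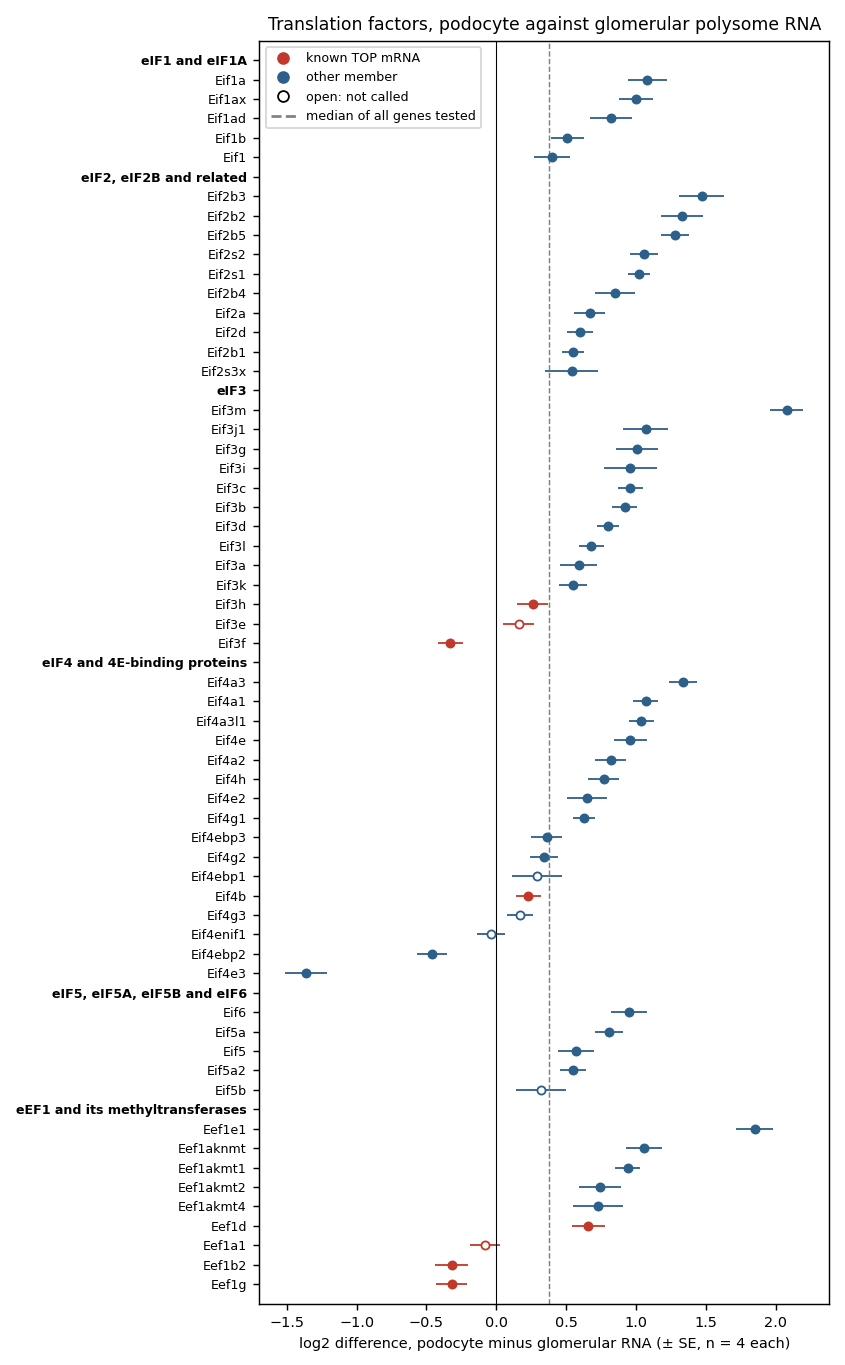
Each point is a member's log2 difference, podocyte minus glomerular RNA, with its SE (n = 4 arrays each), ordered within each role. Filled points passed an adjusted p of 0.05, red points are known TOP mRNAs, and the dashed line is the median of all genes tested (0.38). Eif3m lies farthest right (2.08) and Eif4e3 farthest left (-1.36), and Eef1b2, Eef1g and Eif3f, left of 0 here, moved just right of it with array medians set to 0.

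Promoters of the family were also read for short motifs. RefSeq promoter windows (GRCm38.p6, 250 bases before to 50 after the start) were found for 45 tested members. The E-box CACGTG, the site that Myc and Max bind, was in 12 of them (26.7%), against 8.09% of 27025 genes. The ETS motif CCGGAAG was in 16 (35.6%), against 9.93%. Each motif was searched on both strands, neither contains the other, and they were chosen after the promoters had been seen. The cyclic AMP element TGACGTCA and the amino acid response motif TGATGCAAT were in 0 of the 45 windows, against 2.03% and 0.222% of all genes. With shares that low, 0 of 45 windows does not tell the family from the background. The background was all genes with a promoter window, not those tested here, and a link of the motifs to the podocyte difference was not tested. These are matches of letters, not measured sites. The windows below show the E-box in Eif4g1, Eif4e and Eif4a1, which can form eIF4F, in Eif5a and in Eif3f, which was lower, and the ETS motif in the 2 eIF3 subunits Eif3m and Eif3c, 5′ to 3′ on the strand of the gene, with the motif in capitals.
Eif4g1, chr16:20672652-20672701, plus strand: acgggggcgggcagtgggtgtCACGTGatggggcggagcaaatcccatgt
Eif4e, chr3:138527019-138527068, plus strand: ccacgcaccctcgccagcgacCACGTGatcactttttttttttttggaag
Eif4a1, chr11:69672584-69672633, minus strand: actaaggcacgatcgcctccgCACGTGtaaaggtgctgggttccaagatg
Eif5a, chr11:69921432-69921481, minus strand: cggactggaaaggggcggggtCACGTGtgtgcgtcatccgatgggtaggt
Eif3f, chr7:108934326-108934375, plus strand: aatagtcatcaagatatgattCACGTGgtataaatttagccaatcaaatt
Eif3m, chr2:105017054-105017103, minus strand: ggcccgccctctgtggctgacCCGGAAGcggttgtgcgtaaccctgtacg
Eif3c, chr7:126566406-126566455, minus strand: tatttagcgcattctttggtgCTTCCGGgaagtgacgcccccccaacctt
In Eif3c the capitals are the reverse complement of the ETS letters.

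At day 4 after LMB2 the family moved in both directions by modest amounts. At that time 10 members were called higher and 12 lower than in normal podocytes, which is 17.2% and 20.7% of the 58. The same rule called 12.3% of all genes higher and 19.9% lower, so these shares lie near the background. The members' median was -0.13 and that of all genes -0.12. Quantile normalization gave 16 higher and 9 lower, and setting array medians to 0 gave 5 and 15. Without day 4 replicate 1, which had high tubular markers, the counts were 10 and 11. In these bulk samples fewer podocytes and less RNA per podocyte cannot be told apart, and all values are relative to the array as a whole.

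The early rises included genes of eIF1, eIF2, eIF3 and eIF5. Eif3a had 3.39, 3.19, 3.45 and 3.81 at day 4, against 2.57, 2.56, 2.41 and 2.56 in normal podocytes. No day 4 array came near a normal one, and the rise was 0.93 ± 0.13 (limma adjusted p 8.2e-05). Eif1a, an eIF1A gene, rose by 0.67 ± 0.14 (adjusted p 0.0026) with all 4 day 4 arrays above all normal arrays. Eif1, the start codon gatekeeper, rose by 0.50, Eif5, the GTPase-activating partner of eIF2, by 0.54 and Eif2s1 by 0.39. Eif3c, Eif4g1, Eif4ebp2 and Eif4ebp3 rose by 0.37, 0.41, 0.35 and 0.43. The close relatives Eif1ax (-0.17) and Eif1b (-0.15) were not called, and cross-hybridisation between such paralogues was not tested.

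The early falls came from several roles. Eif5a had 3.69, 3.80, 3.64 and 3.71 at day 4, against 4.75, 4.37, 4.32 and 4.37 in normal podocytes, without overlap. It fell by 0.74 ± 0.10 (limma adjusted p 0.00013). Eif4a2 had 5.54, 5.26 and 5.27 at day 4, where replicate 1 had an outlying spot and was left out of its fit, against 6.27, 6.13, 5.94 and 5.86 in normal podocytes. The fall was 0.69 ± 0.12, and a second, dimmer probe of Eif4a2 gave -0.34. The eEF1A methyltransferases Eef1akmt2 (-0.59) and Eef1aknmt (-0.42), Eif2d (-0.49), a factor that can deliver tRNA without eIF2, and Eif3k (-0.45) were the next largest. Eef1a1 (0.12), Eif4e (0.05), Eif4a1 (0.01), Eif4ebp1 (-0.16), Eif5a2 (-0.12) and Eif6 (0.09) were not called.

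At day 7 a larger part of the family was called. In that comparison 9 members were called higher and 21 lower, which is 15.5% and 36.2% of the 58. Of all genes tested, 21.6% were called higher and 36.7% lower. In this scaling the share of falls was thus close to the background and that of rises was below it. The median was -0.08 for members and -0.14 for all genes. Quantile normalization gave 17 higher and 17 lower, and setting array medians to 0 gave 5 and 27. The background shares above do not apply to these counts. With quantile normalization the members' median was 0.05, beside -0.12 for all genes. Without day 7 replicate 4, the array with the high tubular markers, the counts were 11 and 21.

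Eif4a2 had the largest fall of the family. Its values were 4.17, 4.23, 4.32 and 4.42 at day 7, against 6.27, 6.13, 5.94 and 5.86 in normal podocytes. All day 7 arrays lay far below every normal array. The difference was -1.76 ± 0.11 (limma adjusted p 4e-08), a 3.40-fold fall, and the second probe gave -1.23. Its paralogue Eif4a1, which does the same unwinding in eIF4F, had 6.38, 6.44, 6.45 and 6.35 at day 7, against 6.28, 6.06, 6.31 and 6.22 in normal podocytes. The Eif4a1 arrays at day 7 were all slightly above the normal ones, but the difference of 0.19 was not called (adjusted p 0.082). Eif4a3 fell by 0.75, and its near copy Eif4a3l1 fell by 0.38.

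The eIF3 subunits split. Eif3m had 5.99, 6.38, 6.48 and 6.11 at day 7, against 7.47, 7.24, 7.48 and 7.31 in normal podocytes, and fell by 1.14 ± 0.12 (limma adjusted p 2.5e-06). The groups were well apart, and the second probe gave -1.27. Eif3b, another core subunit, fell by 0.66, Eif3k by 0.53 and Eif3i by 0.47. Eif3a, in contrast, had 3.70, 3.36, 3.75 and 3.29 at day 7, against 2.57, 2.56, 2.41 and 2.56 in normal podocytes. It rose by 1.00 ± 0.13 (adjusted p 1.4e-05), and Eif3c rose by 0.39. The calls of Eif3c and Eif3i were not kept in all 4 other scalings. Eif3j1 was not called (0.09), though its dimmer probe gave -0.85.

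The exchange factor of eIF2 was lower, and no subunit of eIF2 was called lower. In all, 4 of 5 eIF2B genes were called lower at day 7 and none was higher, with a median of -0.54. For all genes tested, 36.7% were called lower and the median was -0.14. Eif2b5 had 1.97, 1.98, 2.38 and 2.17 at day 7, against 3.01, 3.03, 2.93 and 3.02 in normal podocytes. Its groups were apart by more than the spread of either, and the fall was 0.87 ± 0.10 (limma adjusted p 5.8e-06). Eif2b4 fell by 0.76, Eif2b3 by 0.54 and Eif2b1 by 0.29, while Eif2b2 was not called (-0.21). All 5 differences were negative under each of the 4 other scalings, with 3 or 4 of them called. Eif2s1 rose by 0.36, and Eif2s2, the beta subunit, was not called (0.22). With array medians set to 0, however, 0 of the 10 tested genes of the eIF2 group were called higher, Eif2s1 included. Eif2a and Eif2d, which are among the factors outside this complex that can handle initiator tRNA, fell by 0.61 and 0.69.

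Rises at day 7 included an inhibitor of eIF4F assembly. Eif4ebp1, a target of mTOR and of the stress factor ATF4 that holds Eif4e, had 3.55, 3.92, 3.48 and 3.59 at day 7, against 2.93, 3.13, 2.44 and 2.31 in normal podocytes. Normal podocytes were widely spread, yet each lay below all day 7 arrays, and the rise was 0.93 ± 0.18 (limma adjusted p 0.00045). Eif4ebp2 (0.12) and Eif4ebp3 (-0.03) were not called, and Eif4e itself was not called either (0.11, adjusted p 0.45). A second probe of Eif4e gave -0.29. Eif4g1 rose by 0.39, while the other scaffolds Eif4g2 and Eif4g3 fell by 0.38 and 0.39. None of these scaffold genes kept its call in all 4 other scalings, and a second, dimmer probe of Eif4g3 gave -0.02. Eif4enif1, which takes Eif4e to the nucleus and to P-bodies, fell by 0.48.

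Eif1a had 4.99, 4.72, 4.63 and 4.31 at day 7, against 3.67, 3.78, 3.59 and 3.60 in normal podocytes. It rose by 1.00 ± 0.14, without overlap, and Eif1 rose by 0.68. Eif6 had 5.11, 5.14, 4.94 and 4.58 at day 7, against 4.47, 4.24, 4.37 and 4.19 in normal podocytes. The rise of Eif6 was 0.62 ± 0.13 (limma adjusted p 0.00073), and its second probe gave 0.27. Eif5a fell by 1.09 ± 0.11, with 3.37, 3.26 and 3.45 on the 3 day 7 arrays that measured it, all below the 4 normal arrays given above. Its paralogue Eif5a2 was not called (-0.01).

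Of the 9 tested genes named Eef1, Eef1a1 rose by 0.29 (adjusted p 0.039) and 4 fell. They were Eef1g of the exchange complex, by 0.43, Eef1e1 of the multi-synthetase complex, by 0.56, and the methyltransferases Eef1akmt2 and Eef1aknmt, each by 0.59. Eef1b2 (-0.04) and Eef1d (-0.18), the other exchange subunits, were not called. The call of Eef1a1 is a marginal one. Among the 8 TOP members 1 rose and 1 fell at day 7, against 8 and 20 of the 50 others. The ribosomal proteins had 26 of 84 higher and 1 lower at day 7, and 7 and 2 at day 4, but 6 and 4 and then 0 and 3 at these times with array medians set to 0. Of the 38 other factors and regulators, 8 rose and 17 fell at day 7 (21.1% and 44.7%). Among the 22 synthetases 3 rose and 7 fell (13.6% and 31.8%). The background at day 7, in the main scaling, was 21.6% of all genes higher and 36.7% lower. The shares of falls in both lists were thus not far from it. For the ribosomal proteins the day 7 shares were 31.0% and 1.19%, and for the TOP members 12.5% and 12.5%.

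**Figure D2:**
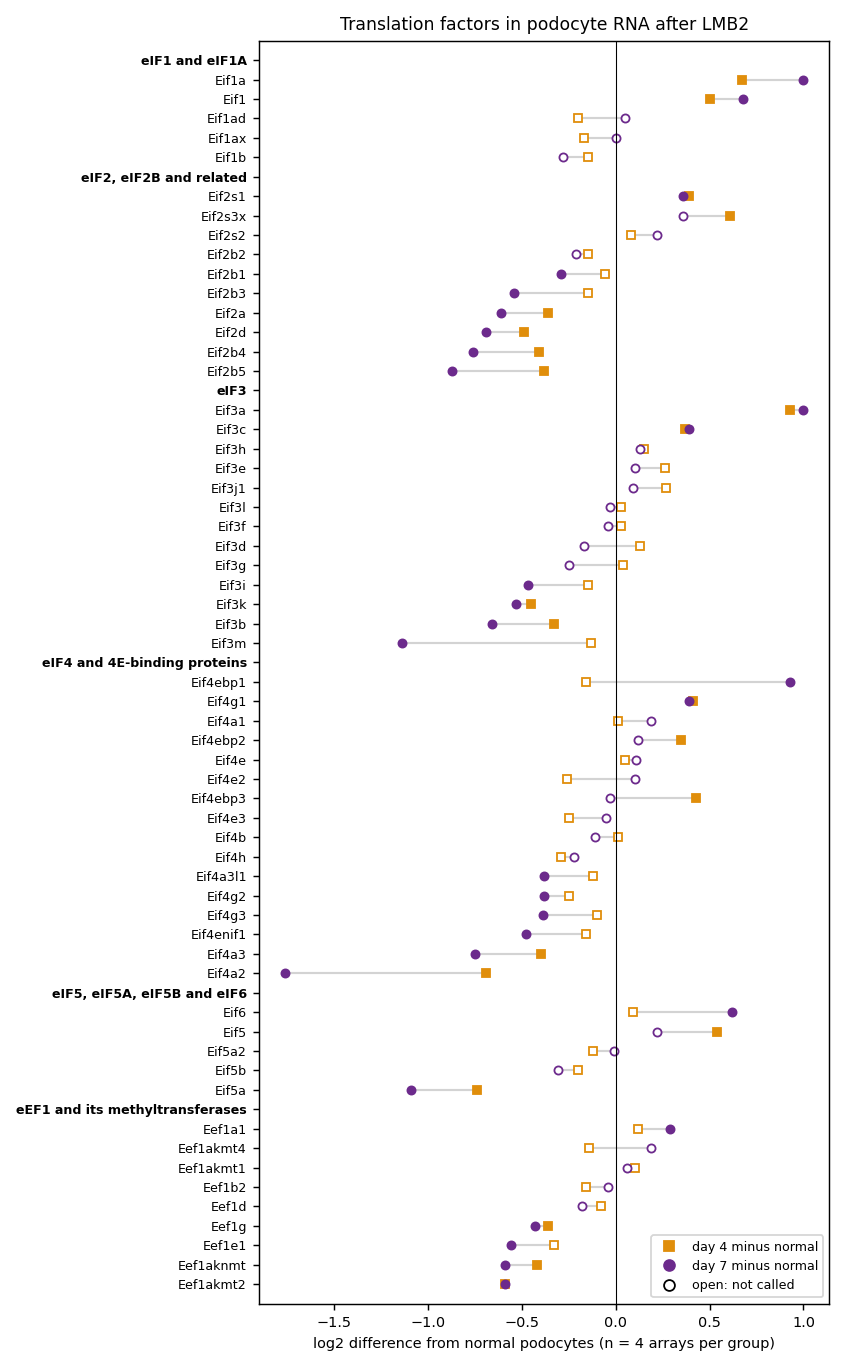
Each row is a tested member. Squares give the log2 difference of day 4 and circles that of day 7 from normal podocytes (n = 4 arrays per group, apart from 3 at day 4 for Eif4a2 and 3 at day 7 for Eif5a), filled where the adjusted p was under 0.05. The 2 differences share their normal arrays. Eif4a2 (-1.76), Eif3m (-1.14) and Eif5a (-1.09) lie farthest left at day 7 and Eif1a, Eif3a (both 1.00) and Eif4ebp1 (0.93) farthest right.

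Both times share the normal arrays, so day 7 was also set directly against day 4, within 1 slide. On that slide all day 7 arrays are in 1 row and all day 4 arrays in the other, so row and time cannot be told apart. In this comparison 2 members were called higher and 12 lower, which is 3.45% and 20.7% of the 58. The background was 13.2% of all genes higher and 20.7% lower, and the medians were -0.10 for members and -0.07 for all genes. Quantile normalization gave 5 higher and 6 lower. Without day 4 replicate 2 the counts were 2 and 6.

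Eif4ebp1 and Eif6 were the members called higher at day 7 than at day 4. Eif4ebp1 had 3.55, 3.92, 3.48 and 3.59 at day 7, against 2.28, 2.55, 2.73 and 2.62 at day 4, a difference of 1.09 ± 0.18 (limma adjusted p 0.00045). Eif6 had 5.11, 5.14, 4.94 and 4.58 at day 7, against 4.18, 4.47, 4.58 and 4.38 at day 4. The lowest day 7 array of Eif6 met the highest of day 4, and the difference was 0.54 ± 0.13. Neither gene had been called at day 4 against normal.

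Eif4a2 and Eif3m showed the largest declines between the times. For Eif4a2 the difference was -1.07 ± 0.12 (limma adjusted p 4e-05), in the direction it already had at day 4. Eif3m had 5.99, 6.38, 6.48 and 6.11 at day 7, against 7.22, 7.39, 7.25 and 7.13 at day 4. The difference was -1.01 ± 0.12 (adjusted p 4.1e-05), with no overlap, although it had not been called at day 4 (-0.13). Eif2b5 differed by -0.49, Eif4a3 by -0.35, Eif5a by -0.35 and Eif3b by -0.33. Eif4ebp3 differed by -0.46, and its day 7 values overlapped those of normal podocytes. Eif1a (0.33) and Eif3a (0.06) were not called between the times. Nor were Eef1a1 (0.17), Eif2s1 (-0.04), Eif2s3x (-0.24), Eif4e (0.06), Eif4g1 (-0.03), Eif4a1 (0.18), Eif4ebp2 (-0.23) and Eif5a2 (0.11).

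Of the 14 members that differed between the times, 7 had been called against normal podocytes at day 7 and not at day 4: Eif2b1, Eif3m, Eif4a3l1, Eif4ebp1, Eif4enif1, Eif4g3 and Eif6. Eif4ebp3 had been called at day 4 and not at day 7. For Eif2s3x, Eif4ebp2 and Eif5, also called at day 4 and not at day 7, a difference between the times was not shown.

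**Figure D3:**
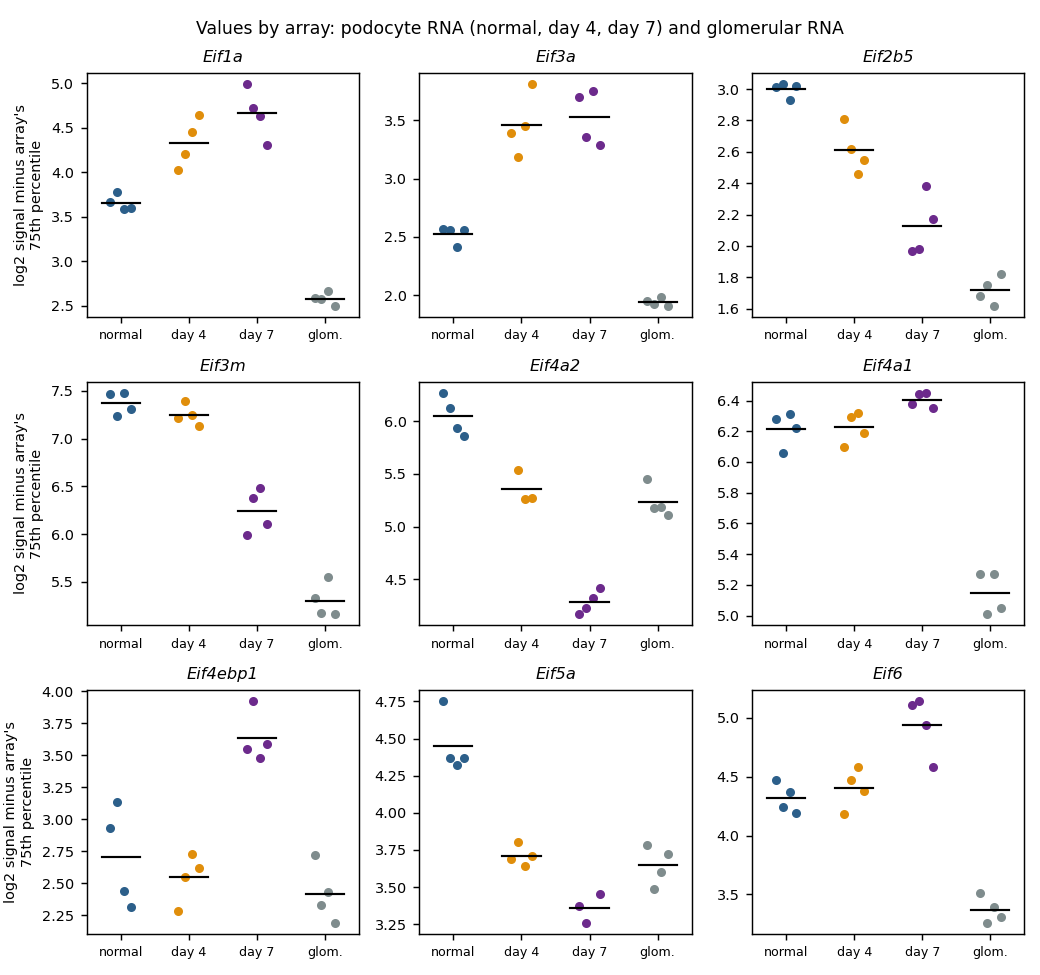
Normalised log2 signal (log2 signal minus the array's 75th percentile) of 9 members on each array, with the group mean as a bar, for podocyte RNA in order of time and then glomerular RNA. Missing points are the outlying spots of Eif4a2 (day 4 replicate 1) and Eif5a (day 7 replicate 3). Eif3m and Eif4ebp1 at day 4 lie among the normal values and part from them at day 7, while Eif3a is already apart at day 4.

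The gamma subunit of eIF2 has an X-linked and a Y-linked gene, and both followed a split that crosses the groups. The 2 probes of the X-linked Eif2s3x did so in opposite directions, the dimmer one with overlap at day 7. Eif2s3y was 1.00 to 2.31 on 9 arrays, which were replicates 2 to 4 of normal podocytes and of glomerular RNA, day 4 replicate 1 and day 7 replicates 3 and 4. On the other 7 arrays it was -7.56 to -6.52, and the Y-linked helicase gene Ddx3y split the arrays in the same way. The labels give no sex. High arrays numbered 3 in normal podocytes, 1 at day 4 and 2 at day 7. The split is thus partly bound up with the group in both comparisons with normal podocytes. With the Ddx3y level as a covariate, added after seeing the data, 10 members were called higher and 14 lower at day 4. At day 7 they were 9 and 24, where the main fit gave 10 and 12, and 9 and 21, at these times. Of the 21 members with several kept probes, the called ones had probes of the same sign in 19 of 19 cases for podocyte against glomerular RNA, 8 of 9 at day 4, 12 of 12 at day 7 and 4 of 4 between the times. The exception was Eif2s3x at day 4. Members not called were left out of this tally, and for some of them the probes disagreed. At day 7 Eif3j1 gave 0.09 on its brighter probe and -0.85 on the other, and Eif1ad gave 0.05 and -0.59. Eif4b gave -0.11 on its brightest probe and -0.64 and 0.26 on the others, while the probes of Eif2s2 and of Eif5 shared a sign.

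At day 4 the brighter Eif2s3x probe had 1.74, 2.30, 2.10 and 1.97, against 1.56, 1.43, 1.35 and 1.34 in normal podocytes. All day 4 arrays were above the normal ones, and the difference was 0.61 ± 0.19 (limma adjusted p 0.023). The 3 day 4 arrays low in Eif2s3y were the 3 highest, and the normal array low in Eif2s3y was the highest of its group. The call was lost in 7 of 19 alternatives, among them the mean of both probes (0.09, adjusted p 0.67) and array medians set to 0 (0.49, adjusted p 0.073). With the level of Ddx3y as a covariate, an alternative added after seeing the data, the difference was 0.39 (adjusted p 0.021). The dimmer probe, which also enters the mean of both, gave -0.42, and it followed the split the other way. It had 0.86 on the day 4 array high in Eif2s3y and 0.16 to 0.20 on the others. In normal podocytes it had -0.19 on the array low in Eif2s3y and 0.79 to 1.48 on the others. At day 7 the brighter probe had 2.12 and 2.17 on the arrays low in Eif2s3y and 1.54 and 1.31 on the others, and the difference from normal was not called (0.36, adjusted p 0.11). In podocyte against glomerular RNA both probes gave similar values, 0.54 and 0.53.

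**Figure D4:**
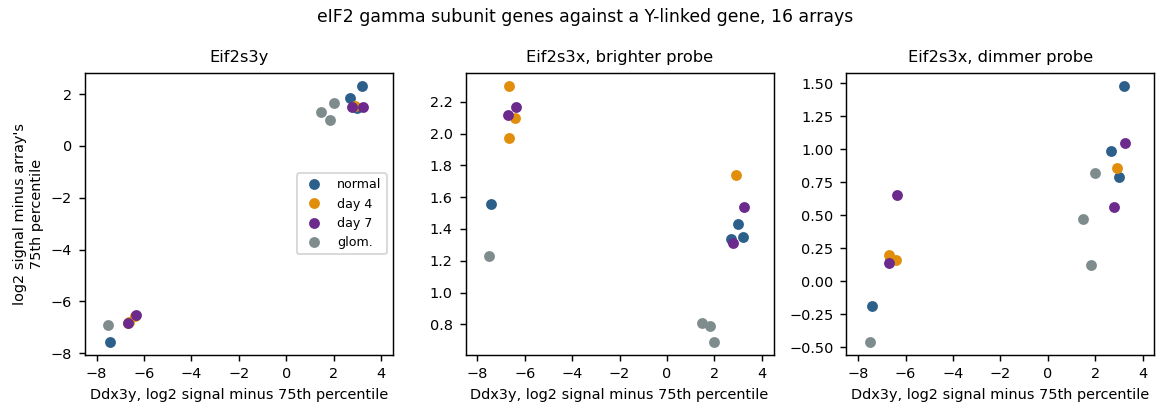
Normalised log2 signal of Eif2s3y and of the 2 probes of Eif2s3x (vertical axes) against that of the Y-linked gene Ddx3y (horizontal axes) on 16 arrays, coloured by group. The 9 arrays high in Ddx3y are those high in Eif2s3y, and within each group the brighter Eif2s3x probe is higher on the arrays low in Ddx3y. The dimmer probe is lower on those arrays in normal podocytes, glomerular RNA and day 4, and overlaps at day 7.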

How the data were processed

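The data are 16 one-colour Agilent arrays read with Feature Extraction 11.5.1.1, per the submitters' processing notes. The deposited scanner files hold a processed intensity per spot on a linear scale, background-subtracted by that program per the file headers and not normalized between arrays. The authors' deposited value table holds log2 values of 39430 probes. Its columns are exact shifts of the scanner values (column medians -3.17 to -2.51), with direction and log2 scale borne out by that match and the normalization not stated. In 6 columns, replicates 1 to 3 of both uninjured groups, the match was another replicate of the same group. The scanner files' own replicate names were used.

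Controls and outlying spots were left out and spots of a probe averaged, giving 55681 probes. RefSeq (GRCm38.p6) accessions named 26582 of them with 1 symbol and left 29099 without a name. A probe was kept when well above background on every measured array of at least 1 group, with values on 3 or more arrays of each group, and a gene was its kept probe with the highest mean. Values missing on single arrays were left out of that gene's fit. Processed intensities were put on the log2 scale and centred on each array's 75th percentile (227 to 415 before logs). No spot was saturated, and the number of arrays limits the precision. All 16 arrays entered 1 model with group as its term (limma 3.58.1, R 4.3.3, lmFit and eBayes), tested on simulated data first. Tables were made with Python 3.11.15 and pandas 2.3.3. Same-numbered podocyte and glomerular arrays deviated together (r 0.42, 0.45, 0.46 and 0.51, each best with its own number), so the numbers pair the samples there. The labels do not say what a number marks.

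The members and the other gene lists were chosen with earlier results of these data known. Every member may be named. Values are given for the 6 largest called rises and falls of each comparison and for Eef1a1, Eef1a2, the eIF2 subunits Eif2s1, Eif2s3x and Eif2s3y, Eif4e, Eif4g1, Eif4a1, Eif4a2, the 3 4E-binding proteins, Eif5a, Eif5a2, Eif6 and Eif3a. Alternatives were other scalings, background corrections, filters, probe rules, blocks, covariates and leaving out each array.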

Additional observations from a re-analysis of the deposited data

Results flagged for a closer look

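In 18 of 244 combinations of a member and a group, 1 of the 4 arrays stood far from the other 3 for the size of the group's range, and chance flags about 1 in 20 groups. Normalised log2 signals are given. Eif2s3y did so at day 4 (replicate 1, 1.53), in normal podocytes (replicate 1, -7.56) and in glomerular RNA (replicate 1, -6.91). Day 4 replicate 1, the array with high proximal tubule markers, also stood apart for Eef1b2 (5.16), Eif3d (5.96), Eif3h (6.32), Eif3j1 (3.41) and Eif4e3 (-2.14), below its group each time. The part of the tubular RNA in these values was not tested. At day 7 Eef1akmt1 was high in replicate 3 (3.08), Eif2b1 low in replicate 2 (1.73) and Eif5 low in replicate 4 (5.10). In normal podocytes replicate 1 was high for Eef1d (6.87) and Eif5a (4.75), and replicate 3 was low for Eif2b5 (2.93) and Eif3a (2.41). In glomerular RNA Eif4e3 (-0.29) and Eif4g3 (2.79) were low in replicate 4 and Eif4ebp3 (1.56) in replicate 3.

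Between the day 7 and day 4 arrays, which lie in different rows of their slide, 14 members differed (limma, adjusted p under 0.05). Eif4ebp1 (1.09) and Eif6 (0.54) were higher at day 7. Eif4a2 (-1.07), Eif3m (-1.01), Eif2b5 (-0.49), Eif4ebp3 (-0.46), Eif4a3 (-0.35), Eif5a (-0.35), Eif3b (-0.33), Eif4enif1 (-0.32), Eif3d (-0.29), Eif4g3 (-0.29), Eif4a3l1 (-0.26) and Eif2b1 (-0.23) were lower.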

How the results depend on the processing

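In podocyte against glomerular RNA the lower calls were 9 with quantile normalization and 1 with array medians set to 0, which also turned the sign of Eef1b2 (0.04), Eef1g (0.04) and Eif3f (0.03). At day 4 the higher calls against normal were 16 and 5 under those settings, and at day 7 they were 17 and 5, and 15 with normexp and quantile normalization. The median of the members at day 7 turned to 0.05 with quantile normalization. Between day 7 and day 4 quantile normalization gave 5 higher and 6 lower, and normexp with the 75th percentile gave 7 lower, where 2 probes with missing values dropped out. With the Ddx3y covariate 4 were higher. Leaving out 1 array at a time gave 6 to 13 lower calls between day 7 and day 4, with 6 when day 4 replicate 2 was left out. In the 4 other scalings 37 of 52 calls in podocyte against glomerular RNA, 12 of 22 at day 4, 21 of 30 at day 7 and 7 of 14 between the times kept direction and call. Eif4a2 and Eif5a, each with a missing value, were not fitted with normexp, so their calls were checked in only 2 of these scalings. The cause of these moves was not tested.

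With the replicate number as a block, podocyte against glomerular RNA had 47 higher and 5 lower, which changed no count there. In the other comparisons same-numbered arrays share only a number (r from -0.41 to 0.49). The block gave 2 higher and 1 lower at day 4, 6 and 14 at day 7, and 1 and 2 between the times. Slide as a block could not be run against normal podocytes, because each slide holds whole groups.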

Other observations

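Among 38 other translation factors and regulators, Ppp1r15a had the largest change after LMB2 at both times. Ppp1r15a, the inducible subunit that dephosphorylates eIF2 alpha, rose by 2.69 at day 4 and 2.11 at day 7 (limma adjusted p 4.9e-07 and 2.3e-06), while its constitutive relative Ppp1r15b was not called (0.05 and 0.14). Atf4, the transcription factor made when eIF2 is phosphorylated, rose by 0.72 at day 7 and was not called at day 4 (0.36). Ddit3, an ATF4 target, fell by 0.88 at day 7. Of the kinases, Eif2ak3 rose by 0.66 and Eif2ak1 fell by 0.82 at day 7, and Eif2ak2 (-0.23) and Eif2ak4 (0.15) were not called.

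Pabpc1, the poly(A)-binding protein that joins Eif4g1 at the cap, rose by 0.64 at day 7, and its inhibitors Paip2 and Paip2b fell by 0.84 and 1.15. Both had also fallen at day 4, by 0.60 and 0.69. Mtor and Rptor are parts of the kinase complex that acts on the 4E-binding proteins. At day 7 Rptor fell by 0.59 ± 0.11 (limma adjusted p 0.00029) and Mtor by 0.79 ± 0.27 (adjusted p 0.02). Mtor was widely spread, with -0.70, -1.70, -0.59 and -0.51 at day 7, against -0.36, 0.26, -0.41 and 0.18 in normal podocytes. Larp1, which holds TOP mRNAs, fell by 0.57 at day 7. Eef2, the factor that LMB2 inactivates, was not called at day 4 (-0.09) or day 7 (-0.03).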
